A study of Mus musculus with 6 samples.

Results

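The Cdkn2a locus and a set of p53 target genes were followed through 3 mouse melanoma lines. The 10 genes were chosen by symbol, for their place in the Ink4a/Arf and p53 pathway, out of 23951 genes in the table. They were Trp53 itself, the neighbours Cdkn2a, Cdkn2b and Mtap, and the p53 targets Cdkn1a, Mdm2, Ccng1, Zmat3, Bbc3 and Bax. Each gene was measured in 6 libraries, of which 2 came from B16-F1, 2 from B16-F1R2 and 2 from B16-F1R2L. B16-F1 is a mouse melanoma line of low metastatic potential that was obtained from a cell repository. B16-F1R2 was derived from a lymph node metastasis. B16-F1R2L came from a lung metastasis that had in turn arisen from a lymph node metastasis. Both metastatic lines were obtained from another laboratory, so that the line and its source cannot be told apart. No line was treated, all were grown in the same medium, and none is labelled as carrying an added allele. It is not labelled whether a line's 2 libraries stem from different cultures, so the p-values measure the spread between these libraries, which may be technical.

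The Cdkn2a gene encodes a pair of unrelated tumor suppressors from overlapping reading frames. Ink4a, made from the downstream start, binds CDK4 and CDK6 and keeps the retinoblastoma protein active, and Cdkn2b next to it encodes a close relative with the same role. Arf, made from the upstream start, binds MDM2, the ubiquitin ligase that marks p53 for degradation, and thereby stabilizes p53. The p53 protein in turn activates genes that stop the cell cycle, such as Cdkn1a, genes that restrain p53 itself, such as Mdm2, and genes of apoptosis, such as Bbc3 and Bax. The locus is among those most often lost in melanoma, and Mtap, which lies beside it, is often lost with it.

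Levels are given as FPKM, that is, fragments per 1000000 mapped ones and per kilobase of a transcript, which are scaled by gene length and can be set side by side between genes. The comparison of lines used log2(FPKM + 0.1) values and limma, a linear model that shares information on the spread across genes. Only the 11379 genes that 2 or more libraries listed at 1 FPKM or higher were tested, and a gene was called at a Benjamini-Hochberg adjusted p under 0.05. Of the 10 genes, 8 were tested and 2 were not, because Cdkn2a and Cdkn2b were listed at 0. The libraries held between 12500000 and 14800000 reads, as estimated from the lowest values in the table, and their FPKM summed to between 596657 and 672794. The melanocyte markers Mitf, Sox10, Dct, Tyr, Tyrp1, Pmel and Mlana were above 0 in every library. Their summed levels were 14970 to 15007 FPKM for B16-F1, 7909 to 8125 for B16-F1R2 and 8924 to 8933 for B16-F1R2L. Single markers departed from these sums. The B16-F1R2L libraries held the most Mitf, at 112 and 127 FPKM, above B16-F1 (92.3 and 88.7) and B16-F1R2 (79.5 and 83.6). Tyr dropped from 192 and 186 FPKM (B16-F1) to 14.7 and 14.2 (B16-F1R2) or 22.4 and 25.1 (B16-F1R2L). Sox10, Dct, Tyrp1, Pmel and Mlana were lower in every library of both metastatic lines than in B16-F1. Summed fibroblast and epithelial markers stayed at or below 0.169 and 0.578 FPKM. The endothelial markers were all listed at 0 in B16-F1 and summed to 0.752 to 1.26 FPKM in the other lines, nearly all of it Pecam1, with Cdh5, Kdr and Tek at 0. The leukocyte markers summed to at most 0.0593 FPKM in B16-F1 and to 12.4 to 17.2 FPKM in the other lines, where Cd79a held nearly all of it and Ptprc, Cd3e and Itgam were at 0. Their part in the results below was not tested. In bulk RNA, fewer cells that express a gene and less RNA per cell cannot be told apart.

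The regulatory sequences of these genes were read from RefSeq on GRCm38.p6, as the 250 bases before and 50 bases after each annotated start. Of the 10 genes, 9 had such a promoter, with 13 promoters in all, and Zmat3 had none. A p53 response element is a pair of decamers that each bind 2 p53 molecules, so each promoter was searched for the pair of adjoining p53 consensus decamers, 20 bases without a spacer, with the fewest mismatches. The motif reads the same on both strands. The best pairs are printed here because they show how differently the promoters carry the motif, with the bases that match in capitals.
Cdkn1a, upstream start: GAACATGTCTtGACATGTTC
Ccng1: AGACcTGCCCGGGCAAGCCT
Trp53: GGACTTGCCCttACTTGTTa
Bax: AGcaTAtCCCAGGCAAGCTT
Bbc3, first start: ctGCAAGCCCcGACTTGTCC
Mdm2: GAACTTGCCTAGcgAccaTT
Mtap: AAGCAcaTCCtAAgTgGCTT
The pairs of Cdkn1a and Ccng1 each had 1 mismatch, and 0.0883% of the 32851 promoters in the table held a pair as good. The pairs of Trp53, Bax and Bbc3 had 3 mismatches, which 6.29% of promoters reach. Those of Mdm2, Mtap, Cdkn2b, the downstream Cdkn1a start and the second Bbc3 start had 5 mismatches, which 76.6% of promoters reach. Both Cdkn2a promoters and the third Bbc3 promoter had 6. A match describes these letters, not binding, and p53 elements can lie outside the windows searched.

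The Cdkn1a and Ccng1 promoters are given whole, with the pair of decamers in capitals. The Cdkn1a promoter is chr17:29090729-29091028 on the plus strand, with the pair starting 51 bases before the start site. The Ccng1 promoter is chr11:40755237-40755536 on the minus strand, with the pair starting 195 bases before the start site.
Cdkn1a, upstream start: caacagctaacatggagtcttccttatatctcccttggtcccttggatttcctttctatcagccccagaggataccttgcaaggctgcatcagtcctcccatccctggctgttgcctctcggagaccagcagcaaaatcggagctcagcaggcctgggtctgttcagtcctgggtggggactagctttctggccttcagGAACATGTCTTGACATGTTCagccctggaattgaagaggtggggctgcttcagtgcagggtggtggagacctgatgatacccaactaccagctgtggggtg
Ccng1: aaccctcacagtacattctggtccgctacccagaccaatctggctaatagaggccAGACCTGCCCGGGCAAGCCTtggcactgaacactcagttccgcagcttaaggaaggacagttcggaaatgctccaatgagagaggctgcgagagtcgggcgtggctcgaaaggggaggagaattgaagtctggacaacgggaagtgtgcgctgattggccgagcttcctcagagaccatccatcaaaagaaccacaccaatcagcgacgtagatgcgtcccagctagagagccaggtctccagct
The 2 Cdkn2a promoters are shown because they belong to the gene listed at 0, with CG pairs in capitals. The upstream start, which gives Arf, lies at chr4:89294570-89294869 and the downstream start, which gives Ink4a, at chr4:89282143-89282442, both on the minus strand of GRCm38.p6 and 12427 bases apart.
Cdkn2a, upstream start: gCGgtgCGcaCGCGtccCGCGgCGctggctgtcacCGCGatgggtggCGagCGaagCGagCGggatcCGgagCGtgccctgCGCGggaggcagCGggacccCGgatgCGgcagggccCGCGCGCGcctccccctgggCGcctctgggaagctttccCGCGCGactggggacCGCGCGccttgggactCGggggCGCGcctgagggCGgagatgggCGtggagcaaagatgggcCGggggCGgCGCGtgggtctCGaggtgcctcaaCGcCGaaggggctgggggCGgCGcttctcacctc
Cdkn2a, downstream start: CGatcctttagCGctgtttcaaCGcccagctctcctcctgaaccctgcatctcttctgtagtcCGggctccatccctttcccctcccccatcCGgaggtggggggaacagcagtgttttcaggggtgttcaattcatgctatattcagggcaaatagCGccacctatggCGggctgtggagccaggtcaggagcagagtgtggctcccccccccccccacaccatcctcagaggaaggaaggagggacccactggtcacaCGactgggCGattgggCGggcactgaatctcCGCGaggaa
The upstream promoter held 45 CG pairs, more than 98.1% of all promoters, and 77.0% of its bases were G or C. The downstream promoter held 12 CG pairs, and the Cdkn2b promoter 18, against a median of 7 over all promoters. The methylation of these sequences was not measured here. Whether the Cdkn2a locus is still present in the DNA of these lines was not tested.

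Cdkn2a was listed at 0 in both B16-F1 libraries, in both B16-F1R2 libraries and in both B16-F1R2L libraries. Cdkn2b was likewise listed at 0 in all 6. In the NCBIM37 assembly, which is the mm9 build the authors aligned to, Cdkn2a covers chr4:88920377-88940557 and Cdkn2b covers chr4:88952198-88956941, both on the minus strand. From the estimated depth, 1 read would have been worth 0.0726 to 0.0859 FPKM at Cdkn2a, and the 3 reads that a count of 0 allows are worth 0.218 to 0.258 FPKM, or 0.145 to 0.172 FPKM at Cdkn2b. These limits rest on estimates and cover counting error only. A value of 0 in an FPKM table can also be a failed estimate, and 7468 genes (31.2% of the table) were at 0 in every library. Of 81 ribosomal protein genes, 3 were at 0 throughout, namely Rpl10l, Rpl3l and Rps4l. No stretch of 50 bases in the transcripts of Cdkn2a or Cdkn2b occurs unchanged elsewhere in the genome. Near matches were not searched, although the alignment allowed 2 mismatches.

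Mtap, which encodes the phosphorylase that recycles methylthioadenosine to methionine and adenine, gave the opposite picture only 93.4 kb away. Its gene covers chr4:88783026-88826985 on the plus strand. The level of Mtap was 100.3 and 99.6 FPKM in B16-F1, 113.6 and 111.3 FPKM in B16-F1R2, and 94.1 FPKM in both B16-F1R2L libraries. The 3 lines did not overlap, with B16-F1R2 highest, and Mtap stood above 91.5% of the tested genes. B16-F1R2L was not called against B16-F1 (log2 fold change -0.09, adjusted p = 0.090), although it was called lower under median-ratio scaling (adjusted p = 0.048), and the log2 fold change turned to 0.016 with libraries rescaled to the same sum and to 0.0061 under quantile normalization. The mean was 99.97 ± 0.490 FPKM for B16-F1, 112.5 ± 1.62 for B16-F1R2 and 94.1 ± 0.0047 for B16-F1R2L (SD, n = 2 each).

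The genes around Cdkn2a fell into a few expressed genes and long runs at 0. Genes were counted by matching symbols to the annotation, which leaves out Focad. Within 1 Mb the table held 41 genes so matched, of which 3 passed the filter, 29 were listed at 0 in all libraries and 9 lay between. The 3 that passed were Mtap, Klhl9, an adaptor of a ubiquitin ligase, and Ptplad2. Klhl9 lay between 16.8 and 19.9 FPKM, and Ptplad2 was at 1.39 and 1.27 FPKM in B16-F1R2, against 0.900 and 0.867 FPKM in B16-F1, with log2 fold changes against B16-F1 of 0.54 in B16-F1R2 and 1.18 in B16-F1R2L. Both B16-F1 libraries lay under 1 FPKM, so Ptplad2 passed the filter only through the lines where it is high, and these values are given without a test. Klhl9 was called lower in B16-F1R2 against B16-F1 (log2 fold change -0.18, adjusted p = 0.032). Of the 17 genes in this stretch that carry an interferon symbol, 15 were at 0 throughout and none exceeded 0.151 FPKM. At 0 throughout were Ifnb1, Ifna1, Ifna2, Ifna4, Ifna5, Ifna6, Ifna7, Ifna9, Ifna11, Ifna12, Ifna14, Ifna15, Ifna16, Ifnab and Ifne. So were C87499, Mir31, Zfp352, Gm13276 to Gm13279, Gm13285, Gm13286, Gm13287, Gm13289, Gm13290, Cdkn2a and Cdkn2b. Ifna13, Ifnz, Gm13271, Gm13272, Gm13275, Gm13283, Gm13288 and Dmrta1 were above 0 in at least 1 library but stayed at or below 0.431 FPKM. Many of the interferon and Gm genes are near-identical copies of each other, so their values are uncertain. Focad, which is in none of these counts and follows Mllt3 in the RefSeq order, lay between 7.54 and 9.04 FPKM. The transcript Gm12603, between the interferon genes and Mtap, was at 0 in both B16-F1 libraries, at 0.484 and 0.569 FPKM in B16-F1R2 and at 0.614 and 0.680 FPKM in B16-F1R2L, too low to be tested.

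On the other side, beyond Cdkn2b, the next 4 genes in the table, Dmrta1, Zfp352, Gm12633 and Elavl2, stayed at or below 0.0158 FPKM. The first gene there to pass the filter was the annotated pseudogene Gm12669, 2532 kb from Cdkn2a. Whether its reads are shared with a parent gene was not tested. Within 3 Mb of Cdkn2a, 57 genes in the table were matched by symbol, again without Focad, 11 passed the filter and 36 were at 0 in all libraries. Of those farther than 1 Mb, 8 passed, with levels from 3.22 to 719 FPKM.

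**Figure D1:**
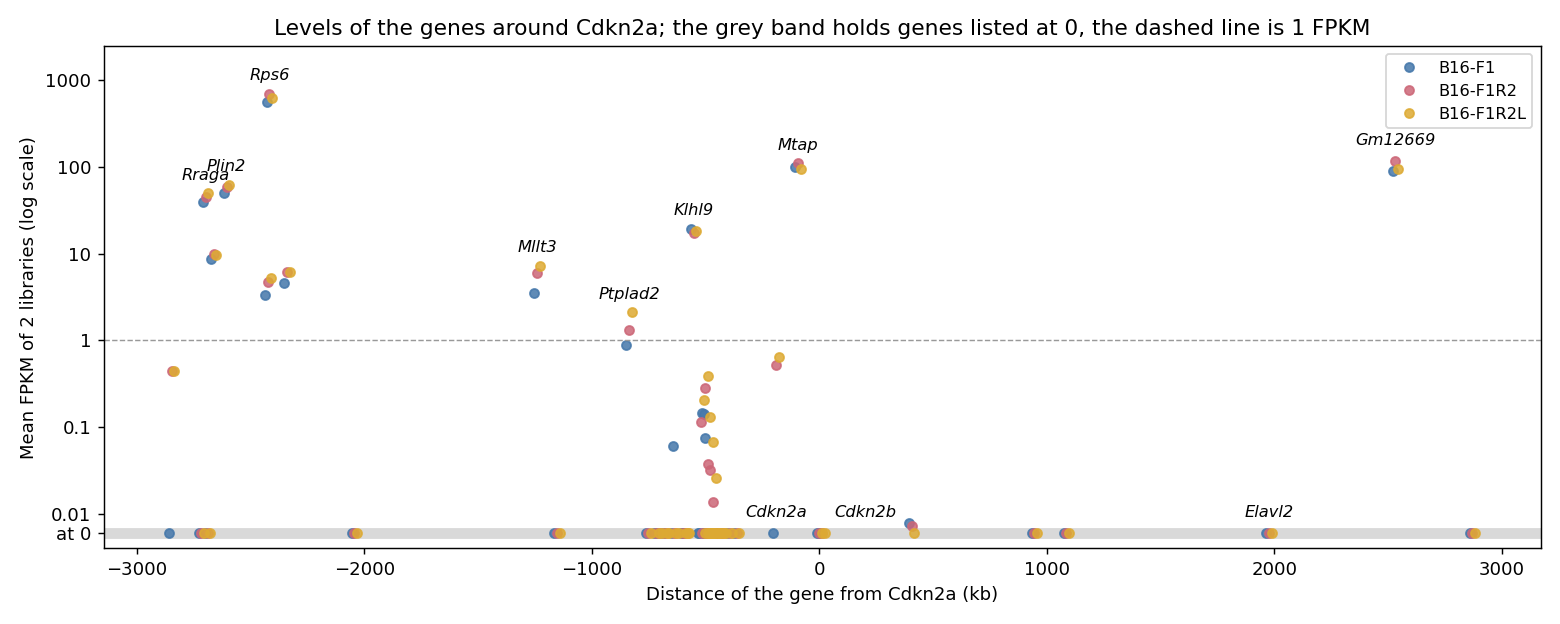
Mean FPKM of the 2 libraries of each line (log axis) against the distance of each gene from Cdkn2a in kb. The 3 lines are set 12 kb apart so that their points can be seen, the grey band holds genes listed at 0, and Mtap at about 100 FPKM stands next to Cdkn2a and Cdkn2b in that band.

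Trp53, the gene of the transcription factor p53, was strongly expressed. Trp53 covers chr11:69393861-69405375 on the plus strand. Its level was 93.5 and 93.0 FPKM in B16-F1, 82.7 and 88.6 FPKM in B16-F1R2, and 78.9 and 76.6 FPKM in B16-F1R2L. The libraries of the 3 lines did not overlap, and the order from high to low was B16-F1, B16-F1R2, B16-F1R2L. Against B16-F1, Trp53 fell by 0.26 on the log2 scale in B16-F1R2L (SE 0.047, adjusted p = 0.0040). The steps in between were smaller, with log2 fold changes of -0.12 from B16-F1 to B16-F1R2 (adjusted p = 0.066) and -0.14 from B16-F1R2 to B16-F1R2L (adjusted p = 0.081), and neither was called, although the first was without B16-F1R2 replicate 2 (log2 fold change -0.17, adjusted p = 0.038). With each library rescaled to the same sum, the fall in B16-F1R2L was no longer called (log2 fold change -0.16, adjusted p = 0.066). Over the alternatives described below, the step from B16-F1R2 to B16-F1R2L ranged from -0.19 to -0.030 and was called in 0. Of the 50-base stretches of the Trp53 coding transcripts, 10.4% also occur unchanged on chromosome 17, near matches not counted. Whether reads from that copy enter the value was not tested. The relatives Trp63, at 0 in all libraries, and Trp73, at most 0.0607 FPKM, were not tested.

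The tested genes kept 1 order of levels in all 6 libraries. Bax was highest with a mean of 269 FPKM, followed by Mtap at 102 FPKM, Trp53 at 85.6, Cdkn1a at 44.5, Ccng1 at 32.9, Mdm2 at 29.5, Zmat3 at 9.21 and Bbc3 at 5.37. Ccng1 and Mdm2 were the closest neighbours in this order, and their ranges over the 6 libraries overlapped, while the ranges of all other neighbours in the order did not. Bax lay above 97.0% and Bbc3 above 25.9% of the tested genes.

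**Figure D2:**
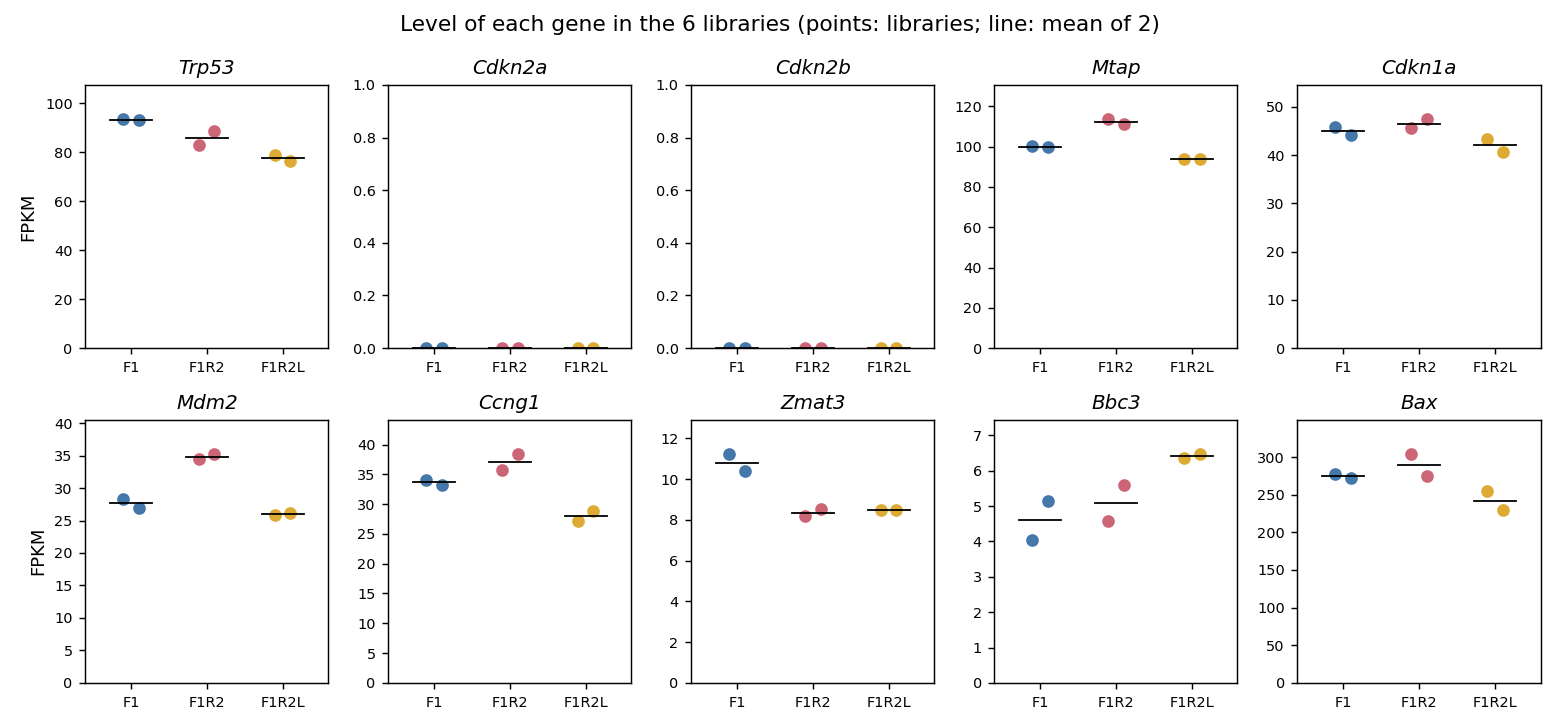
FPKM of each of the 10 genes (linear axis from 0, own scale per gene) in B16-F1 (F1), B16-F1R2 (F1R2) and B16-F1R2L (F1R2L). Points are libraries and lines the mean of 2, and Mdm2 stands out in B16-F1R2 at 34.4 and 35.2 FPKM while Cdkn2a and Cdkn2b lie at 0.

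Cdkn1a encodes p21, the CDK inhibitor through which p53 halts the cell cycle. The level of Cdkn1a was 45.9 and 44.1 FPKM in B16-F1, 45.6 and 47.4 FPKM in B16-F1R2, and 43.4 and 40.6 FPKM in B16-F1R2L. B16-F1 and B16-F1R2 overlapped, and B16-F1R2L lay just below both. No comparison was called, with log2 fold changes of 0.05 (95% interval -0.08 to 0.17) for B16-F1R2 against B16-F1, -0.10 (-0.22 to 0.03) for B16-F1R2L against B16-F1 and -0.15 (-0.27 to -0.02) for B16-F1R2L against B16-F1R2 (adjusted p = 0.48, 0.15 and 0.091). With libraries rescaled to the same sum, the value for B16-F1R2L against B16-F1 turned to 0.0038 (adjusted p = 0.96). That for B16-F1R2L against B16-F1R2 ranged from -0.19 to -0.037 over the alternatives and was called in 0. The intervals are not adjusted for the number of genes.

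Mdm2 encodes the ubiquitin ligase that p53 induces and that degrades p53. The level of Mdm2 was 28.3 and 27.0 FPKM in B16-F1, 34.4 and 35.2 FPKM in B16-F1R2, and 25.8 and 26.2 FPKM in B16-F1R2L. Both B16-F1R2 libraries lay above the other 4, by more than the spread within any line. Mdm2 rose by 0.33 on the log2 scale in B16-F1R2 against B16-F1 (SE 0.048, adjusted p = 0.0015). In B16-F1R2L it fell by 0.42 against B16-F1R2 (SE 0.048, adjusted p = 0.0051), a level 25.2% lower. Both calls held under the 16 alternatives that kept the adjusted p as the only threshold, and neither passed a minimum log2 fold change of 1, under which 0 of the 8 tested genes were called. B16-F1R2L and B16-F1 were not told apart, with a log2 fold change of -0.09 (95% interval -0.20 to 0.03, adjusted p = 0.16), which turned to 0.014 with libraries rescaled to the same sum.

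Ccng1 encodes cyclin G1, a p53 target that brings a phosphatase to MDM2. The level of Ccng1 was 34.1 and 33.2 FPKM in B16-F1, 35.7 and 38.4 FPKM in B16-F1R2, and 27.1 and 28.9 FPKM in B16-F1R2L. B16-F1R2L was lowest without overlap, by 0.40 on the log2 scale against B16-F1R2 (log2 fold change -0.40, SE 0.058, adjusted p = 0.0088) and by 0.26 against B16-F1 (log2 fold change -0.26, SE 0.058, adjusted p = 0.0089). The call against B16-F1 was lost with libraries rescaled to the same sum (log2 fold change -0.16, adjusted p = 0.13) and without B16-F1 replicate 1 (log2 fold change -0.24, adjusted p = 0.054). B16-F1R2 was not called against B16-F1 (log2 fold change 0.14, adjusted p = 0.087).

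Zmat3, a zinc finger protein that binds RNA and is induced by p53, behaved otherwise. The level of Zmat3 was 11.2 and 10.4 FPKM in B16-F1, 8.18 and 8.52 FPKM in B16-F1R2, and 8.50 and 8.46 FPKM in B16-F1R2L. Both metastatic lines lay below B16-F1 and overlapped with each other. Zmat3 fell by 0.37 on the log2 scale in B16-F1R2 (SE 0.068, adjusted p = 0.0044) and by 0.35 in B16-F1R2L (SE 0.068, adjusted p = 0.0057). Under the rescaling to the same sum the second fall was not called (log2 fold change -0.24, adjusted p = 0.052). Between the metastatic lines the log2 fold change was 0.02 (95% interval -0.14 to 0.19, adjusted p = 0.83).

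Bbc3 and Bax are the apoptosis genes of the set. Bbc3 encodes PUMA, which releases BAX from its inhibitors, and its level was 4.06 and 5.14 FPKM in B16-F1, 4.57 and 5.598 FPKM in B16-F1R2, and 6.38 and 6.48 FPKM in B16-F1R2L. B16-F1R2L was highest without overlap, while the other lines overlapped and their replicates differed more than those of any other of the 8 tested genes. Bbc3 was called higher in B16-F1R2L against B16-F1 (log2 fold change 0.48, SE 0.14, adjusted p = 0.027). This call was lost under 5 of those 16 alternatives, among them without B16-F1 replicate 1 (log2 fold change 0.32, adjusted p = 0.12), without B16-F1R2L replicate 1 (0.50, adjusted p = 0.083) and without B16-F1R2L replicate 2 (0.47, adjusted p = 0.099). Against B16-F1R2, Bbc3 in B16-F1R2L was not called (log2 fold change 0.34, adjusted p = 0.13), and 0 of those 16 alternatives called it. B16-F1R2 was not called against B16-F1 (log2 fold change 0.15, adjusted p = 0.42). The lowest value of Bbc3 rests on an estimated 92.2 reads.

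BAX opens the outer mitochondrial membrane. The level of Bax was 278 and 272 FPKM in B16-F1, 304 and 275 FPKM in B16-F1R2, and 254 and 230 FPKM in B16-F1R2L. B16-F1R2L lay below both other lines, which overlapped. Bax was called lower in B16-F1R2L against B16-F1R2 (log2 fold change -0.26, SE 0.069, adjusted p = 0.042), a call that 9 of those 16 alternatives lost. Without B16-F1R2 replicate 1 the log2 fold change was -0.19 (adjusted p = 0.17), and without B16-F1R2L replicate 2 it was -0.19 (adjusted p = 0.17). It was also lost without B16-F1 replicate 1 (adjusted p = 0.074) or replicate 2 (adjusted p = 0.071), where its log2 fold change did not change. Against B16-F1 the log2 fold change in B16-F1R2L was -0.18 (adjusted p = 0.059), which was called under 5 of those 16 alternatives, with a replicate block, with only the 4 libraries of the lines compared, without B16-F1R2 replicate 1 (adjusted p = 0.043), without B16-F1R2 replicate 2 (adjusted p = 0.044) and without B16-F1R2L replicate 1 (log2 fold change -0.26, adjusted p = 0.033). Over those 16 alternatives, the log2 fold change of Bax in B16-F1R2L against B16-F1 ranged from -0.26 to -0.011. B16-F1R2 was called against B16-F1 under quantile normalization alone (log2 fold change 0.07 and adjusted p = 0.40 as deposited).

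**Figure D3:**
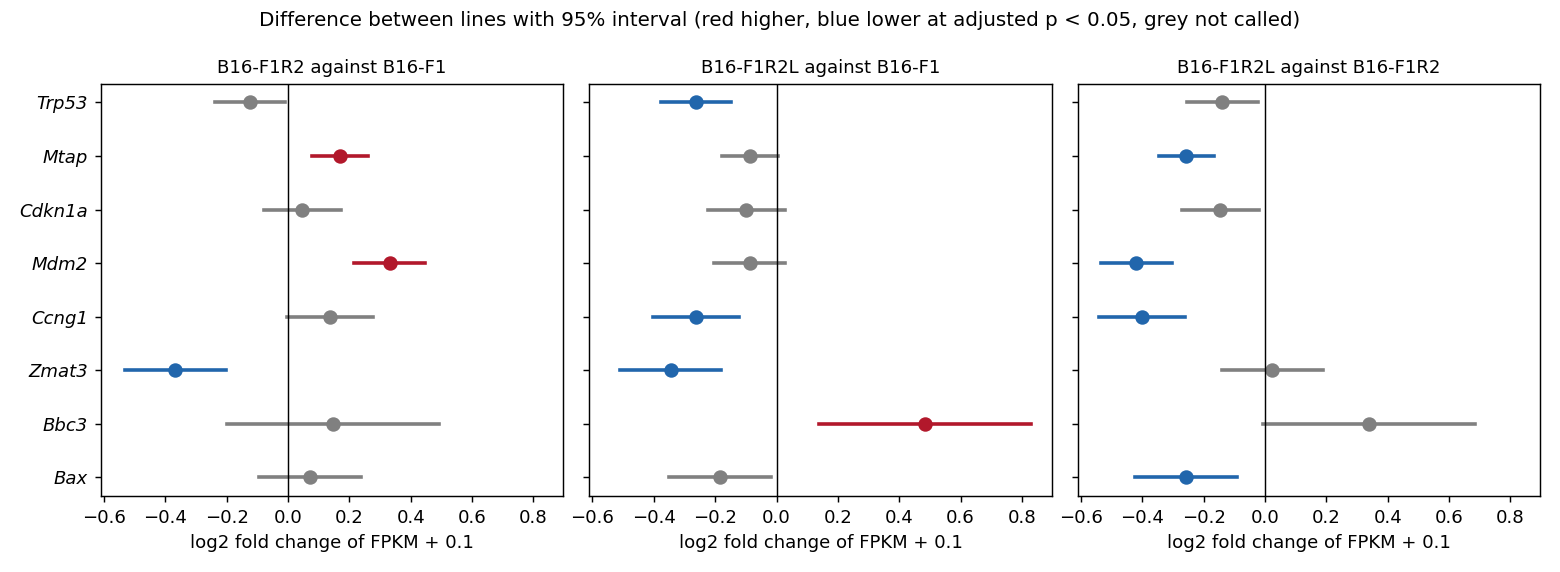
log2 fold change of FPKM + 0.1 for the 8 tested genes in the 3 comparisons (points), with 95% intervals (lines). Red marks genes called higher and blue genes called lower at an adjusted p under 0.05, and in B16-F1R2L against B16-F1R2 the called genes Mtap, Mdm2, Ccng1 and Bax all lie below 0.

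Counted over the set, B16-F1R2 against B16-F1 had 2 of the 8 tested genes called higher (Mtap and Mdm2) and 1 called lower (Zmat3). Mtap rose by 0.17 on the log2 scale (SE 0.037, adjusted p = 0.0089), and the call was lost without B16-F1 replicate 1 (adjusted p = 0.061) or replicate 2 (adjusted p = 0.072). Over all tested genes, 28.2% were called higher and 27.2% lower in this comparison. In B16-F1R2L against B16-F1, 1 gene was higher (Bbc3) and 3 were lower (Trp53, Ccng1 and Zmat3), beside 29.5% higher and 27.1% lower over all tested genes. With libraries rescaled to the same sum, 0 genes were lower in that comparison and Bbc3 remained higher. That rescaling moves the median log2 fold change of all tested genes from 0.017 to 0.118 there, and from 0.022 to 0.129 in B16-F1R2L against B16-F1R2. The metastatic lines were each set against the same pair of B16-F1 libraries.

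In B16-F1R2L against B16-F1R2, 4 of the 8 tested genes were lower (Mtap, Mdm2, Ccng1 and Bax) and 0 were higher, beside 10.5% lower and 12.1% higher over all tested genes. Mtap fell by 0.26 on the log2 scale (SE 0.037, adjusted p = 0.0090), a call lost without B16-F1R2 replicate 1 (adjusted p = 0.055) and with libraries rescaled to the same sum (adjusted p = 0.052). Over the 16 alternatives, this log2 fold change of Mtap ranged from -0.28 to -0.15. Under the rescaling Mdm2 and Ccng1 remained lower. At an unadjusted p under 0.05 limma gave 6 genes lower and 0 higher, beside 18.3% lower and 20.7% higher over all tested genes. The median log2 fold change of the 8 genes was 0.11, -0.14 and -0.20 in the 3 comparisons, against 0.0046, 0.017 and 0.022 over all tested genes. With 8 genes chosen for their pathway, these counts describe the set and are no test of it.

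Of 39 further p53 targets 33 were tested. In B16-F1R2 against B16-F1, 11 of the 33 were higher and 9 lower, with a median log2 fold change of -0.01, beside 28.2% higher and 27.2% lower over all tested genes. In B16-F1R2L against B16-F1, 13 were higher and 10 lower (median 0.07), and in B16-F1R2L against B16-F1R2, 8 were higher and 8 lower (median -0.08). Over all tested genes 29.5% were higher and 27.1% lower in the former, and 12.1% and 10.5% in the latter. Quantile normalization turned the balance, with 9 higher and 12 lower in B16-F1R2L against B16-F1 and 6 higher and 9 lower in B16-F1R2L against B16-F1R2, while the rescaling to the same sum gave 13 and 6, and 9 and 5. In B16-F1R2 against B16-F1 the counts were 11 and 11 under quantile normalization and 11 and 8 under the rescaling. Median-ratio scaling gave 7 and 9 in B16-F1R2L against B16-F1R2. Pmaip1, which encodes the apoptosis protein NOXA, was at 0 in all libraries.

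Gdf15, a secreted stress cytokine, had the largest log2 fold change of these 33 targets in both comparisons with B16-F1. The level of Gdf15 was 0.139 and 0.144 FPKM in B16-F1, 23.5 and 22.2 FPKM in B16-F1R2, and 65.7 and 58.0 FPKM in B16-F1R2L. The 3 lines did not overlap, and the log2 fold changes were 6.57 for B16-F1R2 against B16-F1, 8.00 for B16-F1R2L against B16-F1 and 1.43 for B16-F1R2L against B16-F1R2 (adjusted p = 0.00089 for the last). The first 2 values depend on the added 0.1, since B16-F1 lay near that value itself, and they are given without a test, because Gdf15 passed the filter only through the lines where it is high. Eda2r, a receptor of the TNF receptor family, which passed only through B16-F1R2, was at most 0.0129 FPKM in B16-F1, 1.05 and 1.31 FPKM in B16-F1R2, and 0.771 and 0.671 FPKM in B16-F1R2L. The counts of targets higher against B16-F1 include Gdf15 and Eda2r, and so rest in part on genes that the filter let through only where they are high. Ak1, adenylate kinase 1, rose from 4.50 and 4.58 FPKM to 23.0 and 21.6 FPKM in B16-F1R2 and to 20.5 and 17.3 FPKM in B16-F1R2L.

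Among the falling targets, Cd82, a tetraspanin that suppresses metastasis, had 6.18 and 6.52 FPKM in the B16-F1 libraries, 1.62 and 1.56 FPKM in those of B16-F1R2 and 2.75 and 2.604 FPKM in those of B16-F1R2L. Trp53inp1, a p53-induced nuclear protein, fell by 1.02 and 0.82 on the log2 scale in B16-F1R2 and B16-F1R2L against B16-F1 (adjusted p = 0.00053 and 0.0013). Ephx1, an epoxide hydrolase, fell by 0.78 in B16-F1R2L against B16-F1 (adjusted p = 3.2e-05). The stress gene Sesn2 crossed over, with 11.9 and 10.8 FPKM in the B16-F1 libraries, 5.49 and 6.16 FPKM in those of B16-F1R2 and 17.4 and 16.9 FPKM in those of B16-F1R2L. Ddit4, an inhibitor of mTOR signalling, did likewise, from 14.4 and 13.4 FPKM to 8.93 and 8.10 and then to 22.02 and 22.96 FPKM. In B16-F1R2L against B16-F1R2, Sesn2 and Ddit4 rose by 1.54 and 1.39 on the log2 scale (adjusted p = 0.00070 and 0.00069). Plk2 and Aen fell there by 0.73 and 0.52 (adjusted p = 0.012 and 0.0034).

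**Figure D4:**
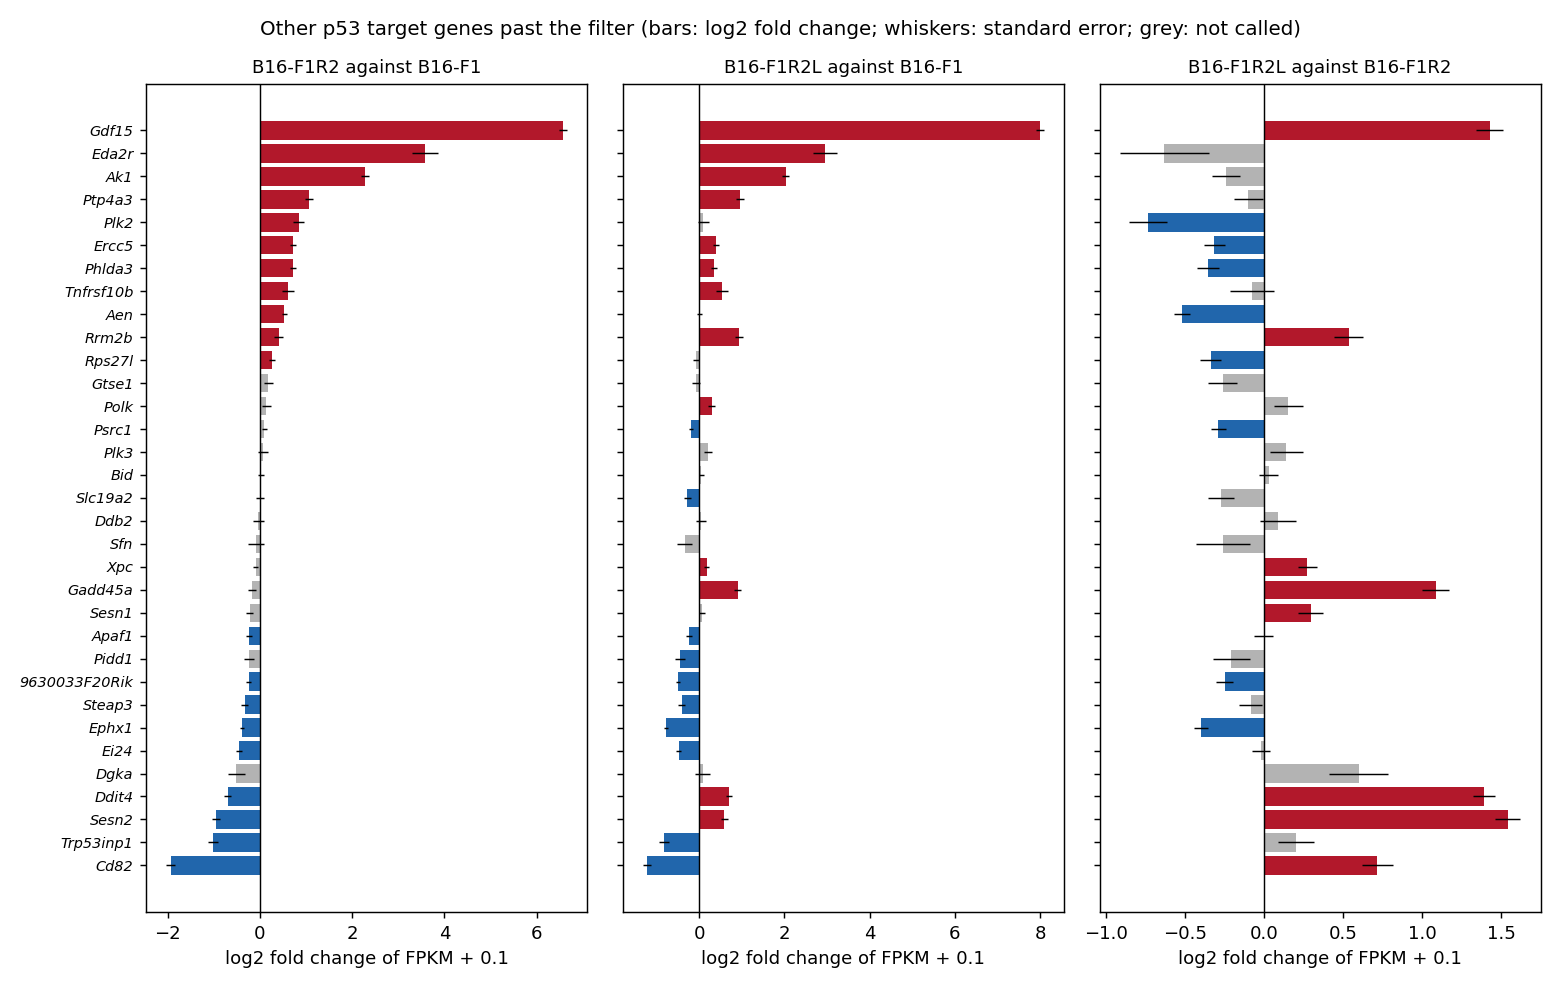
log2 fold change of FPKM + 0.1 (bars) with its standard error (whiskers) for the 33 further p53 targets tested, in the 3 comparisons, each with its own horizontal scale. Red bars were called higher, blue lower and grey neither, and Gdf15 at 6.57 and 8.00 lies far above the rest in both comparisons with B16-F1.

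The genes that control p53 moved by less than 1 on the log2 scale. All 21 regulators and cofactors were tested, and in B16-F1R2 against B16-F1, 6 were higher and 5 lower, with log2 fold changes between -0.83 and 0.38, beside 28.2% higher and 27.2% lower over all tested genes. The damage kinase Atr rose by 0.38 (adjusted p = 0.016), Mdm4, the partner of MDM2, by 0.34 (adjusted p = 0.029), and the checkpoint kinase Chek1 by 0.31 (adjusted p = 0.0043). Hipk2, a kinase that activates p53, fell by 0.83 (adjusted p = 0.00049), the ubiquitin ligase Rchy1 fell by 0.59 (adjusted p = 0.00084) and Ppp1r13b, a cofactor of p53, fell by 0.36 (adjusted p = 0.031). In B16-F1R2L against B16-F1, 7 were higher and 3 lower, beside 29.5% and 27.1% over all tested genes. Atr, Mdm4 and the DNA repair kinase Prkdc rose by 0.66, 0.59 and 0.52 (adjusted p = 0.0016, 0.0036 and 0.0079), and Rchy1, Hipk2 and Rfwd2, another ubiquitin ligase of p53, had log2 fold changes of -0.63, -0.52 and -0.15 (adjusted p = 0.00060, 0.0036 and 0.047). Under quantile normalization the counts against B16-F1 were 5 higher and 6 lower in B16-F1R2, and 6 higher and 7 lower in B16-F1R2L. Between the metastatic lines limma called 0 higher and 1 lower, Rpl11 (log2 fold change -0.32, adjusted p = 0.037), beside 12.1% and 10.5% over all tested genes. At an unadjusted p under 0.05 it gave 4 higher and 1 lower, where 20.7% of all tested genes were higher and 18.3% lower.

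Downstream of Ink4a lie CDK4, CDK6, the D cyclins and the retinoblastoma family. Of 18 genes of this axis, all tested, 4 were higher and 10 lower in B16-F1R2 against B16-F1, with a median log2 fold change of -0.23, Cdkn1c among the higher ones, beside 28.2% higher and 27.2% lower over all tested genes. Ccnd1, cyclin D1, fell to 33.9 and 33.2 FPKM in B16-F1R2 and 22.1 and 21.4 FPKM in B16-F1R2L, against 64.5 and 63.7 FPKM in B16-F1. Cdkn2c, an Ink4 inhibitor outside the Cdkn2a locus, fell from 46.8 and 47.0 FPKM to 21.5 and 24.02 FPKM and stood at 22.9 and 19.8 FPKM in B16-F1R2L. Ccnd3, cyclin D3, had 186 and 189 FPKM in the B16-F1 libraries, 112 FPKM in both of B16-F1R2 and 103 and 95.3 FPKM in those of B16-F1R2L. These genes fell in both comparisons with B16-F1, Ccnd1 by 0.93 and 1.56, Cdkn2c by 1.04 and 1.14 and Ccnd3 by 0.75 and 0.93 on the log2 scale, with adjusted p of at most 0.00013.

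Rb1, the retinoblastoma gene, moved the other way, with 4.30 and 3.93 FPKM in the B16-F1 libraries, 5.72 and 5.74 FPKM in those of B16-F1R2 and 7.88 and 9.39 FPKM in those of B16-F1R2L. It was called higher in all 3 comparisons, with log2 fold changes of 0.47, 1.05 and 0.58 (adjusted p = 0.0094, 0.00033 and 0.016). Cdkn1c, which encodes the CDK inhibitor p57, was listed at 0.051 and 0 FPKM for B16-F1, at 2.11 and 1.62 FPKM for B16-F1R2 and at 2.00 and 1.76 FPKM for B16-F1R2L, and passed the filter only through the latter lines, so that its place among the genes higher against B16-F1 is no test. Ccne1, cyclin E1, rose by 0.69 in B16-F1R2 against B16-F1 (adjusted p = 7.7e-05) and fell by 0.54 in B16-F1R2L against B16-F1R2 (adjusted p = 0.0028). Cdkn2d, the remaining Ink4 gene, rose by 0.45 in B16-F1R2L against B16-F1 (adjusted p = 0.039). In B16-F1R2L, 5 genes of the axis, Cdkn1c again included, were higher and 7 lower against B16-F1, or 6 and 4 with libraries rescaled to the same sum. Against B16-F1R2, 4 were higher, among them Cdk2 and Cdkn1b at log2 fold changes of 0.43 and 0.30, and 3 lower, or 5 and 2 with the rescaling. The shares over all tested genes were 29.5% higher and 27.1% lower in the comparison with B16-F1, and 12.1% and 10.5% in that with B16-F1R2.

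**Figure D5:**
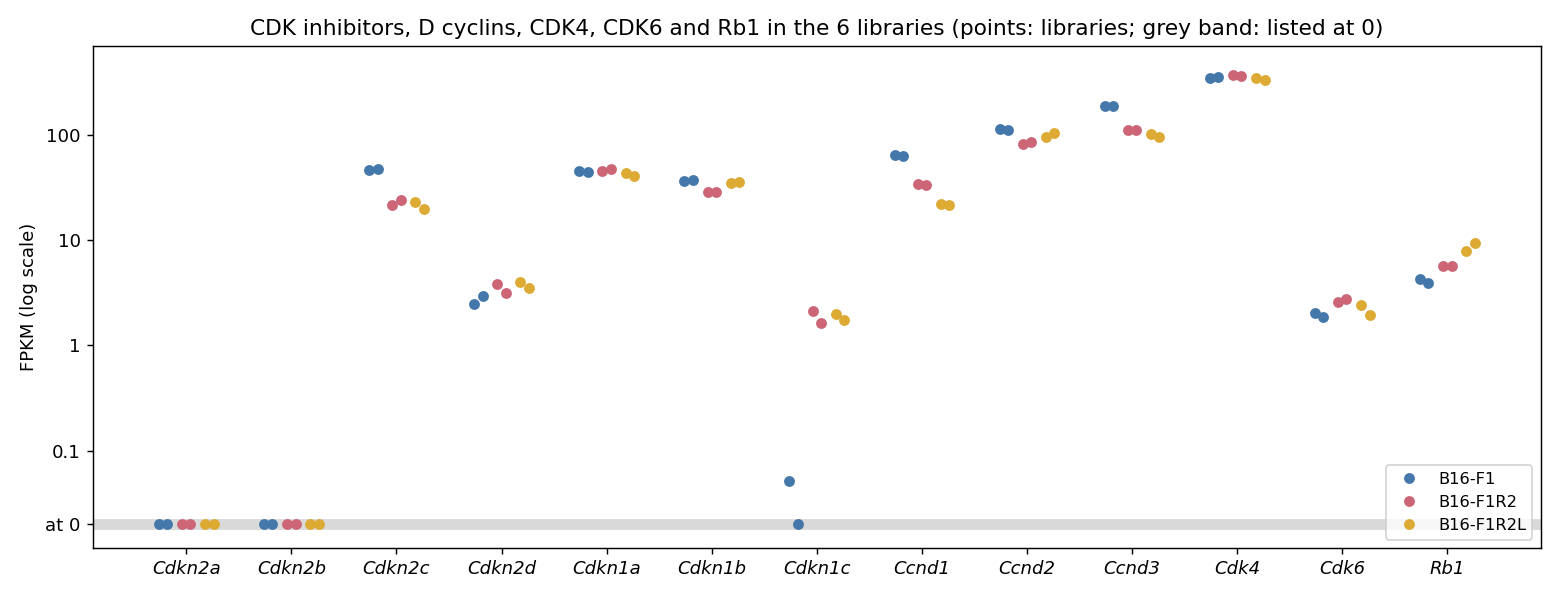
FPKM (log axis) of CDK inhibitors, D cyclins, Cdk4, Cdk6 and Rb1 in each library, genes picked by role, with points for libraries and a grey band for values listed at 0. Cdkn2a and Cdkn2b lie at 0 in every line, Cdkn1a stays between 40.6 and 47.4 FPKM, and Ccnd1 falls from 64.5 to 21.4 FPKM.

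Of 15 regulators of the Ink4a/Arf locus 14 were tested, and the repressor Tbx3 was at 0 in all libraries. In B16-F1R2 against B16-F1, 2 of the 14 were higher (Myc and Ezh2) and 6 lower, beside 28.2% and 27.2% over all tested genes. Only 1 was higher with libraries rescaled to the same sum, without a trend in the spread, and without B16-F1 replicate 2, B16-F1R2 replicate 1 or B16-F1R2 replicate 2. Myc, a transcription factor that induces Arf, rose to 34.7 and 42.1 FPKM in B16-F1R2 and 40.9 and 36.0 FPKM in B16-F1R2L, against 17.3 and 18.0 FPKM in B16-F1, or by 1.11 and 1.12 on the log2 scale (adjusted p = 0.00024 for both). Ezh2, the methyltransferase of the Polycomb complex that silences the locus, rose by 0.16 and 0.15 in the metastatic lines (adjusted p = 0.031 and 0.037). These adjusted p lay nearer to the threshold of 0.05 than those of Myc. Id1, which represses Ink4a, went from 1.65 and 2.43 FPKM to 1.07 and 0.883 and then to 0.259 and 0.218 FPKM, and passed the filter through both B16-F1 libraries and 1 of B16-F1R2. It is counted among the lower genes in all 3 comparisons, and against B16-F1 it was tested only because it is high there. The Polycomb gene Cbx7 and the repressor Tbx2 fell by 0.77 and 0.48 in B16-F1R2 (adjusted p = 0.0057 and 0.00053). In B16-F1R2L against B16-F1, 3 were higher and 5 lower, with Rnf2 at a log2 fold change of 0.24, Tbx2 at -0.55 and Phc2 at -0.44. These counts were 1 and 6 under median-ratio scaling and 4 and 4 with libraries rescaled to the same sum. Against B16-F1R2, 1 was higher (Cbx7, 0.74) and 2 were lower (Id1, -1.67, and Bmi1, -0.15), or 2 and 1 with the rescaling. Over all tested genes, 29.5% were higher and 27.1% lower against B16-F1, and 12.1% and 10.5% against B16-F1R2.

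Mtap feeds the methionine salvage pathway, whose substrate arises from polyamine synthesis. All 12 genes of these pathways were tested, and in B16-F1R2 against B16-F1, 7 were higher and 1 lower, beside the rise of Mtap, where 28.2% of all tested genes were higher and 27.2% lower. The arginine methyltransferase Prmt5, which the substrate of MTAP inhibits, went from 45.9 and 47.7 FPKM to 83.3 and 84.2 FPKM, and Srm, spermidine synthase, and Odc1, ornithine decarboxylase, rose by 0.47 and 0.38 on the log2 scale (adjusted p = 0.0087 and 0.00064). Adi1, an enzyme of the salvage pathway, fell by 0.99 (adjusted p = 1.9e-05). In B16-F1R2L against B16-F1R2, 5 were lower and 1 higher, beside the fall of Mtap, with Srm at -0.69, Enoph1 at -0.53, Prmt5 at -0.47 and Adi1 at 0.29. In B16-F1R2L against B16-F1, 3 were higher (Prmt5, 0.37, Mat2b, 0.21, and Sms, 0.17) and 2 lower (Adi1, -0.70, and Enoph1, -0.20), or 4 and 1 with libraries rescaled to the same sum. Over all tested genes, 12.1% were higher and 10.5% lower between the metastatic lines, and 29.5% and 27.1% in B16-F1R2L against B16-F1. In the other 2 comparisons the counts were the same under each scaling tried, except for 8 higher in B16-F1R2 against B16-F1 under quantile normalization.

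The genes whose pattern over the 6 libraries was most like that of Trp53, by the root mean square difference of centred log2 values, were Pptc7 (0.014), BC027231 (0.021) and Rap1gds1 (0.022), against a median of 0.20 over all tested genes. Those most like Cdkn1a were Ilk (0.014), Nelfa (0.016) and Zfp961 (0.019), against a median of 0.19. Pptc7 lay between 7.65 and 9.47 FPKM and Ilk between 96.1 and 110 FPKM. The 6 points share their libraries, and the likeness is a description.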

How the data were processed

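The authors sequenced polyadenylated RNA of the 3 lines, 2 stranded libraries per line, on a HiSeq2500 as 50-base reads from 1 end. The authors aligned reads with TopHat2 2.0.10, Bowtie 1.0.0 and SAMtools 0.1.1.9 to NCBI37/mm9, with 2 mismatches and up to 20 positions per read, and checked them with FastQC 0.10.1. They deposited 1 table of FPKM, not pooled over replicates. The submitters' processing notes name Cuffnorm, without a version, and the gene annotation and the use of strand in quantification are not given in the sources used here. The authors used DESeq2 for their own comparisons, and FPKM are not counts, so no count test was run.

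From the deposited FPKM, log2(FPKM + 0.1) was computed for genes that reached 1 FPKM in 2 or more libraries. The fit was made with limma 3.58.1 under R 4.3.3 (eBayes with a trend, all 6 libraries, no block, Benjamini-Hochberg over 11379 genes), after a test on simulated data. On this scale the change of a low gene comes out too small. With 2 libraries against 2, an exact permutation test cannot go below a two-sided p of 0.333, so none was run. For the same reason, a lack of overlap between 2 lines says little alone. Cdkn1a and Mdm2 did not overlap in B16-F1R2L against B16-F1 and were not called. Depth was estimated from the lowest values of 2583 genes with 1 transcript, and precision at low levels is limited by it. Positions came from the NCBIM37 annotation by symbol, and promoters from RefSeq. Python 3.11.15 with numpy 2.4.6, pandas 2.3.3 and matplotlib 3.10.9 was used for all else.

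The genes and lists were chosen with earlier results of these data known, and the p53 motif was chosen after the promoters had been read. Named were all 10 genes with every library, up to 3 called genes of each list per direction and comparison with the largest log2 fold change, genes at 0 throughout, the neighbours of Cdkn2a within 1 Mb, and the 3 genes most like Trp53 and Cdkn1a. The neighbours beyond Cdkn2b, Gm12669, Focad and the cell type markers were named outside this rule or from their own lists, with their values in view. The alternatives changed the pseudocount (to 1 or 0.01), the filter (none, or 5 FPKM), the scaling (a sum of 1000000, median-ratio, quantile), the trend (none), the libraries (only the 4 compared, or each omitted in turn), the block (replicate number) or the size required of a call (a log2 fold change of 1).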

Additional observations from a re-analysis of the deposited data

How the results depend on the processing

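The 11 called changes among the 8 tested genes kept their direction under the 16 alternatives that leave the adjusted p as the only threshold, and 4 kept the call under those 16 (Mdm2 in both comparisons with B16-F1R2, Zmat3 in B16-F1R2 against B16-F1 and Ccng1 in B16-F1R2L against B16-F1R2). Of 384 recomputed fold changes, 7 changed sign, none of them called, 22 lost the call and 8 gained it. With a sum of 1000000 per library, B16-F1R2L against B16-F1 gave 0.016 for Mtap, 0.0038 for Cdkn1a and 0.014 for Mdm2. Quantile normalization gave 0.0061 for Mtap there and -0.064 for Zmat3 in B16-F1R2L against B16-F1R2. With 1 library left out, the latter ranged from -0.0059 without B16-F1R2 replicate 1 to 0.051 without B16-F1R2 replicate 2. Bbc3 in B16-F1R2 against B16-F1 was -0.021 without B16-F1 replicate 1 and up to 0.31 without other libraries. The causes were not tested.

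A minimum log2 fold change of 1 left 819 genes higher and 328 lower in B16-F1R2 against B16-F1, 957 and 259 in B16-F1R2L against B16-F1, and 116 and 24 in B16-F1R2L against B16-F1R2, with 0 of the 8 genes in any. With a sum of 1000000, 2043 genes and 0 of the 8 were lower in B16-F1R2L against B16-F1, and against B16-F1R2 there were 2079 higher and 489 lower, with 2 of the 8 lower. Calls were then higher in 66.6% and 81.0%, against 52.1% and 53.7% as deposited. In B16-F1R2L against B16-F1R2, 743 genes were lower with no filter and 650 without a trend. Of the 8 genes, 0 were higher in B16-F1R2L against B16-F1 with no filter or under quantile normalization.

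Leaving out 1 library left 1 to 2 of the 8 genes higher and 1 to 2 lower in B16-F1R2 against B16-F1, 0 to 1 higher and 2 to 4 lower in B16-F1R2L against B16-F1, and 2 to 4 lower in B16-F1R2L against B16-F1R2, where 317 to 1051 genes were higher and 155 to 1038 lower. The lowest counts there came without B16-F1R2 replicate 1, and without B16-F1R2L replicate 2 there were 362 higher and 243 lower. A line with 1 library left was assumed to vary like the others. Over the other lists, 104 of 510 counts moved by more than 1.5 times.

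Over all tested genes, deviations of same-numbered libraries correlated at 0.052, -0.10 and 0.079. These values show little pairing by replicate number over the genes as a whole, and cannot exclude it for single genes. With a replicate block, the calls were 3141 higher and 3040 lower for B16-F1R2 against B16-F1, 3299 and 3031 in B16-F1R2L against B16-F1, and 1217 and 1104 in B16-F1R2L against B16-F1R2, and 4 of the 8 genes instead of 3 were lower in B16-F1R2L against B16-F1. Depth limits Bbc3 most, and values of Cdkn2a and Cdkn2b under about 3 reads may not have been seen.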
